A study of Mus musculus with 6 samples.

Results

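The genes that copy DNA were examined in mouse bone marrow-derived macrophages exposed to extracellular ADP. The set held 37 genes that load and fire the replicative helicase, synthesise DNA, supply nucleotides, join the lagging strand and restore chromatin behind the fork, taken by symbol from a list. All 37 were on the array, with 46 probes. A gene counted as measured when a probe was well above background, by the scanner software's flag, on all 3 arrays of at least 1 group. This left 36 of the 37 genes, out of 19575 features measured in all. The 36 were well above background on all 6 arrays. The probe of Ccne2, the second E-type cyclin, stayed too close to background on all 6 arrays, so Ccne2 has no value here.

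Macrophages were grown from C57BL/6 bone marrow in L929-conditioned medium, a source of the growth factor M-CSF. The control group held 3 samples kept as controls for 6 h, with no agent named for them, and the ADP group held 3 samples exposed to 100 µM ADP for 6 h. ADP is a nucleotide that activated and damaged cells release, and the design asks how macrophages respond to it. The submitters describe independent experiments with different donors, but the labels do not tie a replicate number to a donor, nor give the animals' sex or age. A one-colour array was used for each sample. Controls 1 and 2 shared slide 1 with ADP 1, and ADP 2 and 3 shared slide 2 with control 3, so each slide held both groups. Levels below are log2 signals minus the log2 of the array's 75th percentile, taken over non-control spots, and differences are ADP minus control on that scale. An array signal depends on its probe, so levels are compared between samples and not between genes.

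A cell that prepares to divide places the ring of Mcm2 to Mcm7 on origins of replication in G1, with the help of Cdc6 and Cdt1, and fires these origins in S phase. Transcription factors of the E2F family, held back by the retinoblastoma protein Rb1 until the cell commits to division, drive most of these genes, which therefore tend to be expressed together. Macrophages grown with M-CSF divide in culture, so their RNA holds such transcripts. In RNA from a whole culture, fewer cells in S phase and less RNA per cell cannot be told apart.

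The share of non-control spots well above background was 50.3% to 51.9%, none of the spots was saturated, and the arrays' 75th percentiles were signals of 455 to 549. All 9 macrophage markers were well above background on all 6 arrays, with a summed linear level, as a multiple of the array's 75th percentile, of 987 to 1343 in controls and 1188 to 1616 with ADP. Of 8 neutrophil and granulocyte precursor markers, 7 were on the array and 5 were well above background on all arrays. Their summed level was 22.6 to 24.4 in controls and 26.1 to 31.8 with ADP, without overlap. Over all single features, 9.67% lay above the controls in that way. Most of this sum was 1 gene, S100a8, with a mean log2 level of 4.35 in controls and 4.67 with ADP (limma adjusted p 0.345). Elane was next, at 1.18 and 1.36 (limma adjusted p 0.757). The progenitor markers, of which 2 of 3 were well above background on all arrays, summed to 3.31 to 3.91 in controls and 3.08 to 3.49 with ADP. Fibroblast and stromal markers, 3 of 4 well above background on all arrays, summed to 11.7 to 12.9 in controls and 12.3 to 13.6 with ADP. Dendritic cell markers, 3 of 5, summed to 36.9 to 139.8 and 36.9 to 159. Nearly all of the dendritic cell sum was Siglech, with a mean log2 level of 5.93 in controls and 6.59 with ADP (limma adjusted p 0.769). Mast cell markers were never well above background, nor were 2 of 3 B cell markers. Of 3 T and NK cell markers, 1 was well above background on all arrays, Cd3e. So was 1 of the 3 erythroid markers on the array, Epor. The part of other cells in the replication genes' differences was not tested.

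No replication gene passed the test without a block. None of the 19575 features did either, so 0% were called, and limma's smallest Benjamini-Hochberg adjusted p was 0.260, which was also that of Cdt1. The differences of the replication genes nevertheless lay mostly on one side. Of the 36, 33 (91.7%) read lower with ADP, against 49.2% of all features, and their median difference was -0.19, against 0.00 for all features. They ranged from -0.63 for Uhrf1 to 0.14 for Fen1. At an unadjusted p under 0.05, 6 read lower, namely Mcm2, Mcm3, Mcm5, Mcm7, Cdt1 and Uhrf1, and 0 read higher. The background rates were 6.18% lower and 6.55% higher over all features. The 3 ADP arrays lay below all 3 control arrays for 8 genes, against 9.72% of all features, and above them for 1 gene, against 9.67% of all features.

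The slides were then taken into account, which lowered more p-values. With the slide as a block, 14 replication genes read lower at an unadjusted p under 0.05 and 0 read higher, where 13.6% of all features read lower and 10.8% read higher. None passed limma's adjusted test in that fit, where the smallest adjusted p was 0.073. With the slide block and variances that follow the signal and resist outliers, a setting first chosen after the data had been seen, Cdc6, Cdt1, Mcm10, Mcm3, Pole and Uhrf1 were called lower and 0 were called higher. In that fit 5.38% of all features were called lower and 4.52% higher. The replication genes' count went to 0 without control 1, where 0 of all 19575 features were called, and to 0 without control 3, where 97 were called. Without control 3 this fit has only ADP arrays on slide 2, so its differences come from slide 1 alone. The count of replication genes went to 2 without ADP 3, with 547 features called. It went to 11 without control 2, with 1891 called, against 1939 with all arrays. The median difference was -0.13 within slide 1 and -0.34 within slide 2. Of the 36 genes, 25 (69.4%) read lower within both slides, against 32.4% of all features, 1 read higher within both and 10 had opposite signs.

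Single arrays moved these values. Control 3 was the highest of the 6 arrays for 26 of the 36 genes, and ADP 3 was the lowest for 17. Without control 3 the median difference was -0.10 and 29 genes read lower, and without control 2 the median was -0.26. With control 3 left out, no control remains on slide 2. Values without control 3, here and below, therefore cannot tell the part of that array from that of the slides. Leaving out 1 array also moved the count of genes lower at an unadjusted p under 0.05, from 6 to 2 when control 1 was left out, to 3 for control 3, to 3 for ADP 3 and to 10 for control 2. Over all features the lower count moved as well, from 1210 to 617, 1059, 519 and 1183 in the same order.

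**Figure D1:**
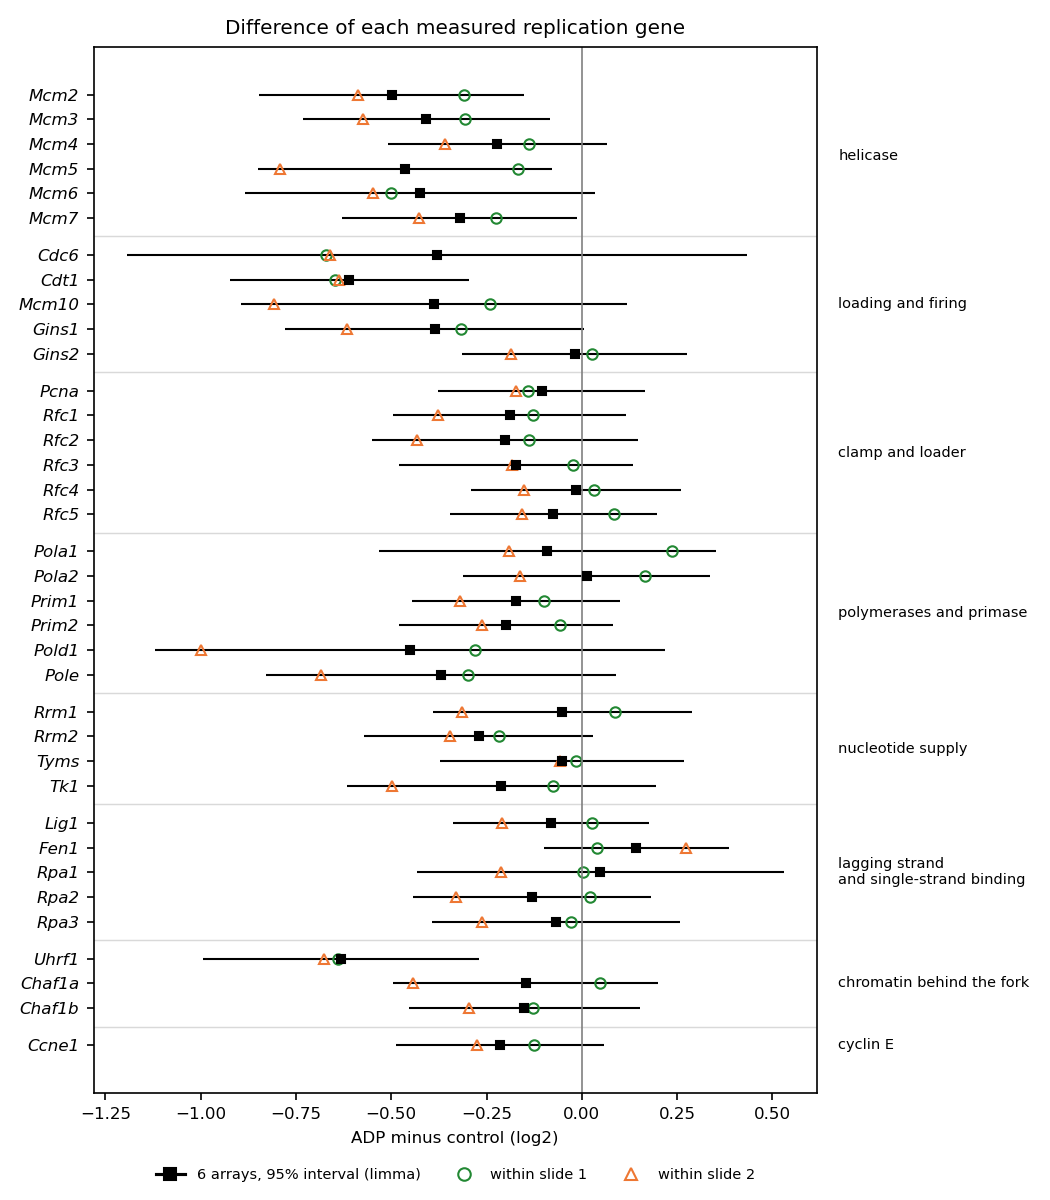
Difference of each measured replication gene, ADP minus control in log2 units, ordered by role, with points for the fit over all arrays and its 95% interval and marks for the differences within each slide. Of the 36 genes, 33 lie left of 0, from -0.63 for Uhrf1 upward, and 25 lie left of 0 within both slides.

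The stretch around the start of the genes was searched for E2F motifs, since the differences of these genes leaned the same way. RefSeq promoter windows of 250 bases before to 50 after the start, on build GRCm38.p6, were matched for 30 of the 37 genes. The E2F words searched on both strands were TTTCCCGC, TTTCGCGC, TTTGCCGC and TTTGGCGC, which can overlap each other on opposite strands. Of the 30 genes, 11 (36.7%) held at least 1 word, against 2.605% of the 27025 genes in the table, 2.26% of its 32851 windows, since some genes have several, and 4.59% of the 10550 matched genes that were measured. The 200 bases before the start are shown for 5 of the 6 genes with words there that read lower within both slides, 5′ to 3′ on the gene's strand, with E2F words in capitals. The sixth, Rfc3, with a difference of -0.02 within slide 1, is not shown. Pola1 also holds a word there, from -138, and is not shown, as it differed by 0.24 within slide 1 and -0.19 within slide 2. The stretches shown were thus picked by the differences, so they cannot link the words to lower values. Mcm6 and Mcm5 each hold a pair of overlapping words, from position -110 in Mcm6 and from -153 in Mcm5, counted back from the start. The words that stand alone begin at -47 in Mcm6, at -165 in Mcm7, at -185 in Uhrf1 and at -138 in Cdc6. Mcm7 and Uhrf1 have a further start in the table, whose stretch is not shown. Mcm2 is shown because it read lower by a similar amount without any of the words in its window.
Mcm6, chr1:128359706-128359905, minus strand: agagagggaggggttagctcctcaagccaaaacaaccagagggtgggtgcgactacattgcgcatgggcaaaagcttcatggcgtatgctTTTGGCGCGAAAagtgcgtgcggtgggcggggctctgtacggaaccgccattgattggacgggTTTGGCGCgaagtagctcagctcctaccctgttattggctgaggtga
Mcm5, chr8:75109309-75109508, plus strand: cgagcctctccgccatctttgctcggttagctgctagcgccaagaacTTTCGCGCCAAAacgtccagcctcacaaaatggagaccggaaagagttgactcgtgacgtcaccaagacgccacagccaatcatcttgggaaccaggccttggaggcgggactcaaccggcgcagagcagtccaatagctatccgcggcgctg
Mcm7, chr5:138171884-138172083, minus strand: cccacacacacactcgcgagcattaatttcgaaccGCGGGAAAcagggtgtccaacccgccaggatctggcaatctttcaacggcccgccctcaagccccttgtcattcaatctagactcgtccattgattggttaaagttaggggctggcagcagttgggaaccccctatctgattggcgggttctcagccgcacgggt
Cdc6, chr11:98907951-98908150, plus strand: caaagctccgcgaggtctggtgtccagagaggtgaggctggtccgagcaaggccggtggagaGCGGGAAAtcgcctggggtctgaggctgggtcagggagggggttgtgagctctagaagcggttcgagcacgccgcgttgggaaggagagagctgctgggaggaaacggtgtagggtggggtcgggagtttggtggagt
Uhrf1, chr17:56304113-56304312, plus strand: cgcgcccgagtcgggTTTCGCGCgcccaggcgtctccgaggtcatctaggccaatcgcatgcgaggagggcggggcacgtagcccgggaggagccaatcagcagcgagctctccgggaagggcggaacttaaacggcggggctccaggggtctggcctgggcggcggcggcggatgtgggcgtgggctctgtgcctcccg
Mcm2, chr6:88898781-88898980, minus strand: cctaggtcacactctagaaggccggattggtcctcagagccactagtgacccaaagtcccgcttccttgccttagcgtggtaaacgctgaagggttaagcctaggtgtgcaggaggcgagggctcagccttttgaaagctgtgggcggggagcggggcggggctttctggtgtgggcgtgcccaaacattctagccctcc

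The other genes with a word were Mcm3, Cdt1, Pold1, Pola1, Rfc3 and Lig1. In Mcm3, Cdt1, Pold1 and Lig1 the words lie only after the start. The median difference was -0.41 over the 11 genes with a word and -0.13 over the 19 without. This contrast was not tested. The 11 include the helicase subunits Mcm3, Mcm5, Mcm6 and Mcm7, and the 19 include only Mcm2 of the helicase. Words and roles therefore cannot be told apart here. Over the other measured genes the medians were -0.03 for 473 genes with a word and -0.00 for those without. CCAAT, the box bound by the factor NF-Y and searched on both strands, was in a window of 18 of the 30 genes (60.0%), against 41.1% of all genes in the table, 37.4% of all windows and 42.7% of matched measured genes. A match of letters is a description and not a site in use.

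The 6 subunits of the replicative helicase read lower with ADP as a group, with a median difference of -0.42, and all 6 did so within both slides. They form the ring that unwinds DNA at the fork, and the values of single subunits follow.

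Mcm2 read 1.41, 1.10 and 1.24 in controls 1 to 3 and 0.95, 0.76 and 0.55 in ADP 1 to 3. All 3 ADP arrays lay below all 3 controls, and ADP 3 was the lowest. The difference was -0.50 ± 0.15 (SE, n = 3 per group), a linear ratio of 0.707, with a limma adjusted p of 0.284. Its probe lies at chr6:88833619-88833678 on build mm9, the build of the array files. Whether the array's probes lie in coding or untranslated exons was not analysed here.

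Mcm3 read 4.13, 3.92 and 4.25 in controls and 3.72, 3.82 and 3.54 with ADP. The groups did not overlap, with ADP 2 closest to control 2. The difference was -0.41 ± 0.13 (SE, n = 3 per group), with a limma adjusted p of 0.308. Mcm5 read 3.16, 2.88 and 3.38 in controls and 2.85, 2.62 and 2.55 with ADP. The groups were again apart, but ADP 1 lay just below control 2, on the same slide. The difference was -0.46 ± 0.16 (SE, n = 3 per group), with a limma adjusted p of 0.323. It was -0.17 within slide 1 and -0.79 within slide 2.

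Mcm7 read 3.66, 3.40 and 3.65 in controls and 3.31, 3.35 and 3.09 with ADP, without overlap. Its difference was -0.32 ± 0.13 (SE, n = 3 per group), with a limma adjusted p of 0.376. Mcm4 and Mcm6 were less clear, since their groups overlapped. Mcm6 read 5.58, 5.34 and 5.78 in controls and 4.96, 5.48 and 4.98 with ADP, where ADP 2 lay above control 2. These arrays were on different slides, and within the slides Mcm6 differed by -0.50 and -0.55, with -0.42 ± 0.19 (SE, n = 3 per group) over all arrays and a limma adjusted p of 0.433. Mcm4 had the smallest difference of the 6. It read 3.82, 3.64 and 3.92 in controls and 3.59, 3.66 and 3.46 with ADP, a difference of -0.22 ± 0.12 (SE, n = 3 per group) with a limma adjusted p of 0.523. Without control 3 the helicase median was -0.32, and without control 2 it was -0.52. All 6 kept their sign over the 19 settings run, which include each array left out. Some of these settings return the same differences as the main fit, so they could not turn a sign.

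**Figure D2:**
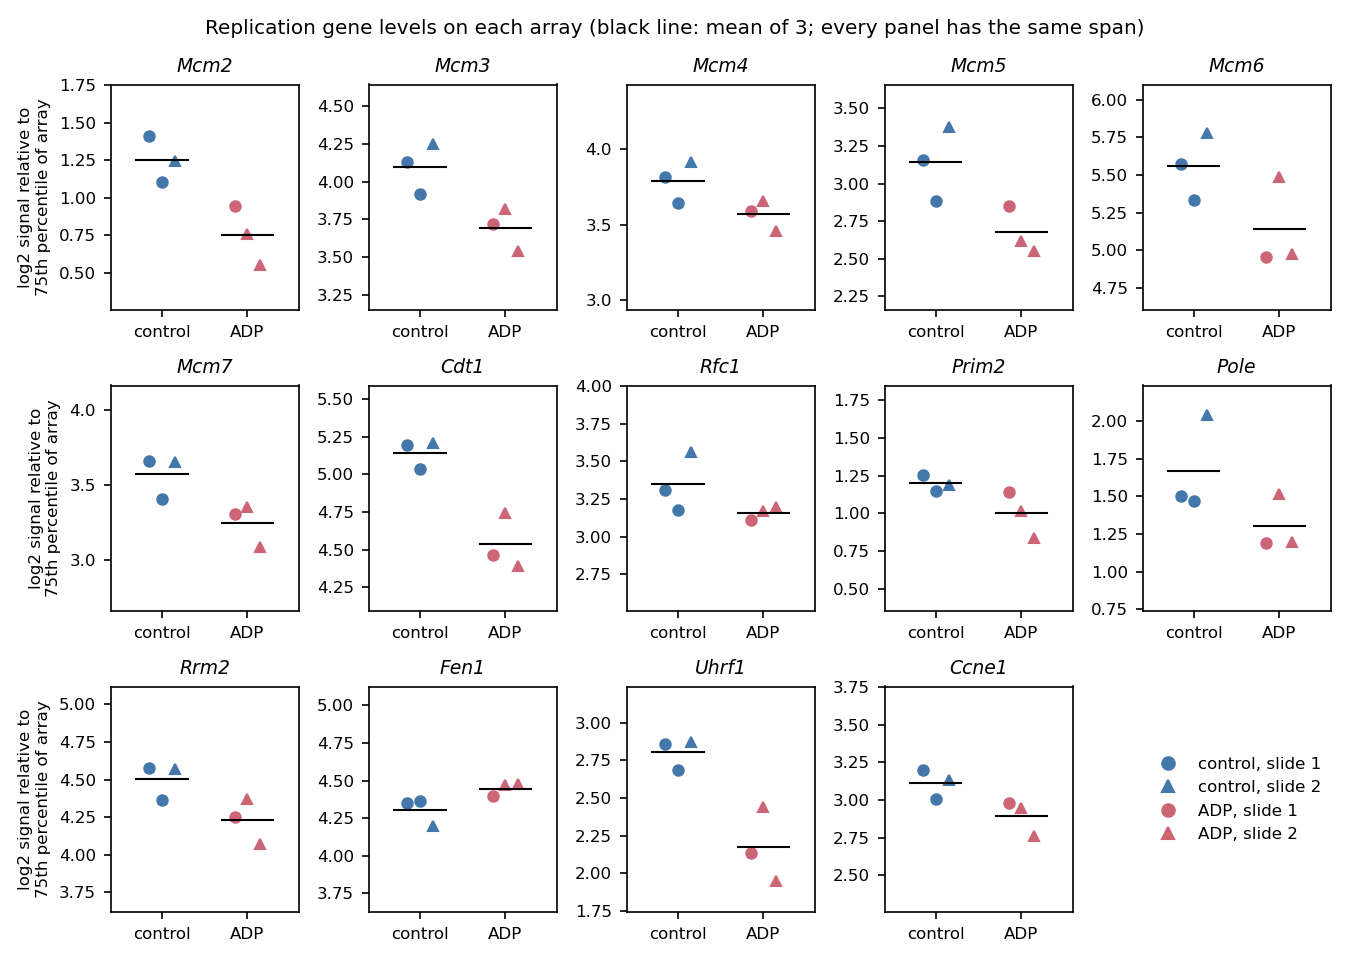
Level of each of the 14 genes given array by array, in log2 units above the array's 75th percentile, with 1 point per array, coloured by group and marked by slide, and a line at each group mean. Cdt1, Uhrf1, Mcm2, Mcm3, Mcm5, Mcm7, Prim2 and Ccne1 have all 3 ADP points below all controls, and Fen1 has them above. Over all features 9.72% lay below and 9.67% above in this way. The 14 include every gene of the set whose groups did not overlap, so their share here is partly set by the choice.

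Among the genes that load the helicase and fire origins, Cdt1, which brings the ring to the origin, read lowest against its controls. Cdt1 read 5.19, 5.04 and 5.21 in controls and 4.47, 4.75 and 4.39 with ADP. The highest ADP array was below the lowest control, and the controls were close together. The difference was -0.61 ± 0.13 (SE, n = 3 per group), a linear ratio of 0.655, with a limma adjusted p of 0.260. It was -0.65 within slide 1 and -0.64 within slide 2. The Cdt1 probe lies at chr8:125096893-125096952 on mm9.

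Cdc6, the loader's ATPase, depended on the slides. Its difference was -0.38 ± 0.34 (SE, n = 3 per group) over all arrays, with overlapping groups, but -0.67 within slide 1 and -0.66 within slide 2. With the slide as a block it was -0.67 ± 0.11 (SE), with a limma adjusted p of 0.073. Without the block and without ADP 1 it was -0.09, and without control 3 it was -0.10. Mcm10, which acts as origins fire, differed by -0.39 ± 0.21 and Gins1, a subunit of the active helicase, by -0.39 ± 0.16 (SE, n = 3 per group). For both, control 3 was the highest array, and without it the values were -0.16 and -0.26. Gins2, from the same complex as Gins1, had a difference of -0.02 with a 95% interval from -0.31 to 0.28.

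The sliding clamp Pcna and its loader, Rfc1 to Rfc5, all read lower with ADP, by small amounts whose intervals included 0. Pcna, which tethers the polymerases, differed by -0.11 ± 0.11 (SE, n = 3 per group). The loader subunit with the smallest p was Rfc1, which read 3.31, 3.18 and 3.56 in controls and 3.11, 3.17 and 3.20 with ADP. The ADP arrays were close together, and control 2 lay between them. The difference was -0.19 ± 0.13 (SE, n = 3 per group) with a limma adjusted p of 0.625. Rfc2 and Rfc3 differed by -0.20 and -0.17. Rfc4 and Rfc5 differed by -0.02 and -0.07 and had opposite signs in the slides.

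Of the polymerase and primase genes, 5 of 6 read lower, and none had an unadjusted p under 0.05. Pole, the catalytic subunit of the leading-strand polymerase, had the smallest p. It read 1.50, 1.47 and 2.04 in controls and 1.19, 1.52 and 1.20 with ADP. Control 3 stood above the other controls, and ADP 2 overlapped controls 1 and 2. The difference was -0.37 ± 0.19 (SE, n = 3 per group) with a limma adjusted p of 0.501, and -0.19 without control 3. Pold1, the catalytic subunit of the lagging-strand polymerase, differed by -0.45 ± 0.28 (SE, n = 3 per group). Control 3 again stood above the other controls, at 2.76 against 1.98 and 1.68, and without that array the Pold1 difference was -0.14. That fit has no control on slide 2, so it cannot tell the part of control 3 from that of the slides. Within slide 1, which does not hold control 3, Pold1 differed by -0.28.

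Prim2, the large primase subunit, read 1.26, 1.15 and 1.19 in controls and 1.15, 1.02 and 0.84 with ADP. The groups did not overlap, but ADP 1 lay just below control 2. The difference was -0.20 ± 0.12 (SE, n = 3 per group) with a limma adjusted p of 0.562. Its partner Prim1, which makes the primer, differed by -0.17. The subunits of polymerase alpha, which extends the primer, had differences near 0, of -0.09 for Pola1 and 0.01 for Pola2.

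All 4 genes of nucleotide supply read lower, with a median of -0.13 and none at an unadjusted p under 0.05. Rrm2, the small subunit of ribonucleotide reductase, which makes deoxynucleotides and is regulated over the cell cycle, had the smallest p. It read 4.58, 4.37 and 4.57 in controls and 4.25, 4.37 and 4.07 with ADP. ADP 2 read like control 2, and the other ADP arrays lay below all controls. The difference was -0.27 ± 0.12 (SE, n = 3 per group) with a limma adjusted p of 0.445. Rrm1, the large subunit, differed by -0.05 with a 95% interval from -0.39 to 0.29. Thymidylate synthase Tyms and thymidine kinase Tk1 differed by -0.05 and -0.21.

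The genes that finish the lagging strand and coat single-stranded DNA had the role median nearest 0, at -0.07. Fen1, the nuclease that trims the flaps of Okazaki fragments, was the only gene of the set whose ADP arrays all lay above the controls. Fen1 read 4.35, 4.36 and 4.20 in controls and 4.39, 4.47 and 4.48 with ADP. The difference was 0.14 ± 0.10 (SE, n = 3 per group), with a 95% interval from -0.10 to 0.39 and a limma adjusted p of 0.642. ADP 1 lay just above control 2. DNA ligase Lig1 differed by -0.08. The subunits of the single-strand binding protein differed by 0.05 for Rpa1, -0.13 for Rpa2 and -0.07 for Rpa3.

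Uhrf1, which binds hemimethylated DNA behind the fork and recruits the maintenance methyltransferase, had the lowest difference of the 36. Uhrf1 read 2.86, 2.69 and 2.87 in controls and 2.14, 2.44 and 1.95 with ADP. The controls were close together, and the ADP arrays were spread more widely and lay below them. The difference was -0.63 ± 0.15 (SE, n = 3 per group), a linear ratio of 0.645, with a limma adjusted p of 0.261. It was -0.64 within slide 1 and -0.68 within slide 2. The Uhrf1 probe lies at chr17:56462770-56462829 on mm9. The histone chaperone subunits Chaf1a and Chaf1b, which deposit new histones on copied DNA, both differed by -0.15.

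Ccne1, the cyclin that with Cdk2 opens S phase, read 3.20, 3.00 and 3.13 in controls and 2.98, 2.95 and 2.76 with ADP. The groups did not overlap, with ADP 1 just below control 2. The difference was -0.22 ± 0.11 (SE, n = 3 per group) with a limma adjusted p of 0.511.

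For 8 of the genes more than 1 probe was measured, and the dimmer probe was not used above. It read lower along with the brighter probe for Mcm3 (-0.52 beside -0.41), Cdc6 (-0.82 beside -0.38), Uhrf1 (-0.87 beside -0.63), Ccne1 (-0.27 beside -0.22) and Chaf1b (-0.19 beside -0.15). The dimmer Uhrf1 probe was well above background on all 3 controls and on 1 ADP array, so its value leans on dim spots. The probes differed in sign for Pole (0.03 beside -0.37), Rpa1 (-0.22 beside 0.05) and Rfc4 (0.02 beside -0.02). The lower value of Pole therefore rests on 1 of its probes.

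**Figure D3:**
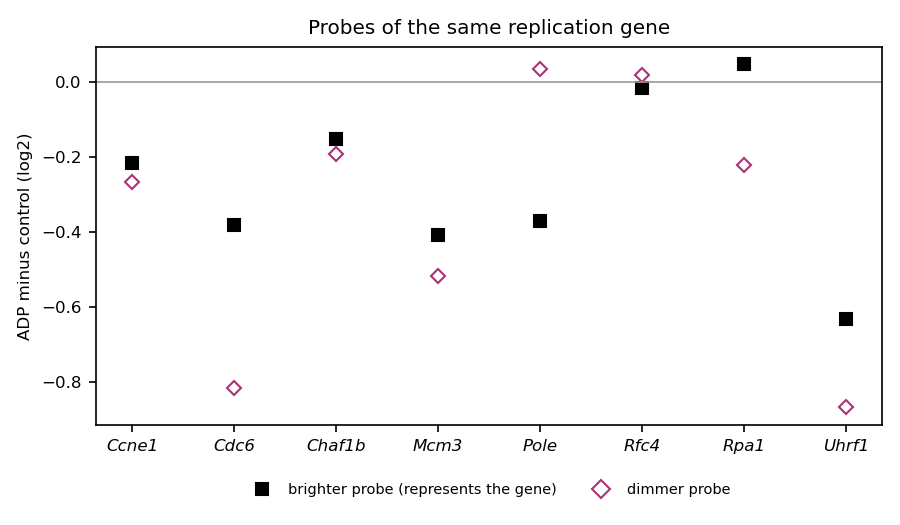
Differences of the 8 genes with more than 1 measured probe, ADP minus control in log2 units, with filled squares for the brighter probe, which represents the gene, and open diamonds for the dimmer one. Both probes lie below 0 for Mcm3, Cdc6, Uhrf1, Ccne1 and Chaf1b, and on opposite sides of 0 for Pole, Rpa1 and Rfc4.

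Other genes of replication also read lower more often than higher. Of 51 such genes, 50 were measured and 33 read lower, with a median difference of -0.10, and -0.03 without control 3. None passed the test without a block. At an unadjusted p under 0.05, 6 read lower and 1 higher, against 6.18% lower and 6.55% higher of all features. Dscc1, a subunit of the alternative clamp loader that acts in cohesion, had the smallest p among those lower, at -0.59 ± 0.14 (SE, n = 3 per group) with a limma adjusted p of 0.261. The gene with the smallest p among those higher was Rrm2b, the p53-induced subunit of ribonucleotide reductase, at 0.36 ± 0.14 (SE, n = 3 per group) with a limma adjusted p of 0.375. Rrm2b was dim, with a control mean of -4.33, at percentile 3.4 of the measured features. Its limma adjusted p was 0.485 with the slide block and trended, robust variances. In the slide block with trended, robust variances, 4 of the 50 were called lower and 0 higher, against 5.38% and 4.52% of all features. The 4 were Dscc1, the fork protection gene Timeless, the thymidylate kinase gene Dtymk and the nuclease gene Dna2, the last 3 named after their values were seen.

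Among 24 genes that control entry into S phase, 22 were measured and 19 read lower, with a median of -0.15. At an unadjusted p under 0.05, 3 read lower and 1 higher, against 6.18% lower and 6.55% higher of all features. Rb1, the retinoblastoma protein that holds E2F factors back, had the smallest p among those lower. It read 2.56, 2.38 and 2.51 in controls and 2.08, 2.04 and 1.78 with ADP, a difference of -0.52 ± 0.12 (SE, n = 3 per group) with a limma adjusted p of 0.261. Cdkn1a, the p21 inhibitor of cyclin-dependent kinases, stood on the other side. It read 3.81, 3.83 and 3.92 in controls and 4.32, 4.02 and 4.46 with ADP, without overlap. Its difference was 0.41 ± 0.14 (SE, n = 3 per group) with a limma adjusted p of 0.314. In the slide block with trended, robust variances, Rb1 and E2f8, a repressor of the E2F family named here after its value was seen, were called lower and 0 genes higher. Over all features the shares called in that fit were 5.38% lower and 4.52% higher.

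Mitosis genes leaned different ways in the slides. Of 25, 23 were measured and 14 read lower, with a median of -0.06 that was 0.01 with the slide as a block, 0.16 within slide 1 and -0.19 within slide 2. It also turned sign when control 1, control 3 or ADP 3 was left out, and with the values as deposited, unscaled. Of the 23, 4 read lower within both slides, 6 read higher within both and 13 had opposite signs. Cenpa, the centromere histone, had the smallest p among those higher, at 0.44 ± 0.16 (SE, n = 3 per group) with a limma adjusted p of 0.354. It was the 1 mitosis gene called in the slide block with trended, robust variances, higher with ADP at a limma adjusted p of 0.021. Over all features 4.52% were called higher in that fit. Ccnb2, a B-type mitotic cyclin, had the smallest among those lower, at -0.36 ± 0.15 (SE, n = 3 per group) with a limma adjusted p of 0.399. The difference between the mitosis and replication lists was not tested.

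Levels were also set side by side array by array. For each array the median over a list was taken after centring each gene on its mean of the 6 arrays. For the 36 replication genes it was 0.07, -0.03 and 0.25 in controls and -0.10, -0.03 and -0.20 with ADP. Control 2 and ADP 2 were thus level, although on different slides, and control 3 and ADP 3 lay farthest apart. For the mitosis genes it was 0.08, -0.09 and -0.01 in controls and 0.23, -0.16 and -0.10 with ADP. ADP 1 was the highest of the 6 there, while it was below all controls for the replication genes.

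**Figure D4:**
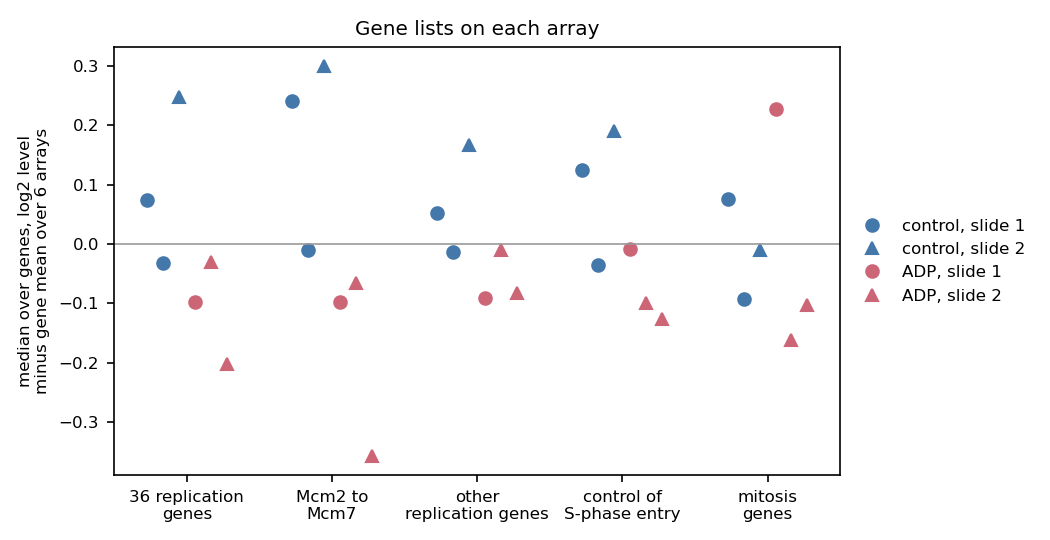
Median of the centred log2 levels of each gene list on each of the 6 arrays, in log2 units, with points coloured by group and marked by slide. Replication genes run from 0.25 in control 3 to -0.20 in ADP 3, and mitosis genes are highest in ADP 1, at 0.23.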

How the data were processed

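RNA of 3 control and 3 ADP-treated macrophage samples was measured on one-colour Agilent arrays. Per the file headers, the authors' deposited intensity of each spot came from Agilent Feature Extraction, version 10.7.1.1 per the submitters' processing notes, background-subtracted within the array and not scaled between arrays. The deposited intensity values of the whole-series table were within 0.001 log2 of the spots' processed signal for 100% of 55681 probes. The flags for spots well above background were used as deposited.

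Here, 3671 control spots were left out, spots of a probe were averaged, and log2 signals were taken relative to each array's 75th percentile. Probes well above background on all 3 arrays of a group were kept, 26587 in all. Of several probes of a gene the brightest on average was used, which gave 19575 features, of which 13377 had a gene name. Replication genes were matched by the name in the files. Other names were updated through a RefSeq table, and coordinates of probes are those of the files, on mm9. No genome was used to annotate probes.

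Groups were compared over all features with limma 3.58.1 (lmFit, eBayes) under R 4.3.3. The test was two-sided, had no block and was adjusted by Benjamini-Hochberg to a threshold of 0.05, after the fit had been tested on simulated data. Standard errors and 95% intervals are limma's. Precision is limited by having 3 arrays a group. A permutation of 3 against 3 arrays cannot give an exact p below 0.1. P-values measure the spread between these samples, whose separate donors the labels do not tie to numbers.

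The slides were checked as a batch, by a block and within each slide. The alternatives were the replicate number as a block, trended and robust variances alone or with the slide block, normexp correction with an offset of 50, quantile and median scaling, the value table as deposited, filters on dim probes, the rule for probes, and leaving out each array. Leaving out arrays in the slide block with trended, robust variances was an alternative chosen after seeing the data. Array by array values were given for the helicase subunits, for the gene with the smallest p of each other role, and for genes whose groups did not overlap. From each further list the gene with the smallest p in each direction was named. The genes and lists were chosen with earlier results of these data known. The 8-letter E2F words were searched in RefSeq windows on GRCm38.p6.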

Additional observations from a re-analysis of the deposited data

How the results depend on the processing

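Without a block, no feature passed the adjusted test under any scaling, filter, probe rule or array left out, and at an unadjusted p under 0.05 limma gave 1282 higher and 1210 lower of 19575. With the slide block and trended, robust variances 1939 passed, 6 of them replication genes, and with 1 array left out in that setting the replication genes called ranged from 0 to 11, and the features called from 0 to 1891. The median of the replication genes kept its direction under all alternatives run. Within slide 2 it was -0.34, a value that sets 1 control array against 2 ADP arrays and whose own error was not measured. In the unscaled value table it was -0.12, where all features shifted by 0.08. The median of the other replication genes was -0.026 in the value table, and -0.14 to -0.027 with 1 array left out. For 27 of the 36 replication genes the sign was the same in all 19 settings. Some of these settings could not turn a sign. Trended, robust variances and the replicate block leave the differences as they are. The filters and the fit of every probe also gave the main differences for these genes. The share of all features with 1 sign throughout was not computed. The 6 called with the slide block and trended, robust variances were Cdc6, Cdt1, Mcm10, Mcm3, Pole and Uhrf1.

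Replicate numbers were not treated as pairs. The correlation of the deviations from the group means, across features, was 0.42, -0.40 and 0.43 for numbers 1 to 3. The 2 samples of number 1 shared a slide, as did those of number 3, but not those of number 2. These correlations therefore cannot tell a pairing by number from the slides. With the replicate number as a block, 0 features were called, the median of the replication genes was -0.19, and 4 of them, in place of 6, read lower at an unadjusted p under 0.05. Over all features 1171 did, in place of 1210. Not every sample correlated best with its own number. The probe of Ccne2 and 1 of 3 Pole probes were too dim to measure on these arrays.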

Other observations

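The difference between slides was tested for each feature by an interaction of treatment and slide in limma. None of the 19575 features passed, with a smallest Benjamini-Hochberg adjusted p of 0.207, and 1955 (9.99%) had an unadjusted p under 0.05. Of the 36 replication genes 4 (11.1%) did, a share near that of all features, namely Mcm10, Chaf1a, Mcm5 and Pold1. Their differences were lower within slide 2 than within slide 1, by -0.57 for Mcm10, -0.49 for Chaf1a, -0.62 for Mcm5 and -0.72 for Pold1. Their adjusted p-values by limma lay between 0.463 and 0.495.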
